A study of Homo sapiens with 3 samples.

Results

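The 10 genes described here report on signaling through ERK, the last kinase of the cascade that runs from receptor tyrosine kinases through RAS, RAF and MEK. They were chosen by name and not by a rule on their values, but with earlier results of these data known. They were found by Entrez identifier among the 25702 genes counted in each library. Of the 10, 7 encode feedback inhibitors of the cascade (DUSP6, DUSP4, DUSP5, SPRY2, SPRY4, SPRED1 and SPRED2) and 3 are immediate early genes (EGR1, FOS and IER2). Molm13, an established line from a person with acute myeloid leukemia, carries an internal tandem duplication in the receptor FLT3. Molm13 cells were exposed in medium with serum, for 6 h, to DMSO (vehicle) or to 50 nM or 100 nM pyrvinium, an anthelmintic dye. For each condition 1 mRNA library was sequenced. The question was how the drug alters the transcriptome, and both the model (1 cell line) and the sampling are narrow. With 1 library per condition, no difference below has a replicate check, and intervals cover counting error only.

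In cells whose receptors signal continuously, active ERK enters the nucleus and phosphorylates transcription factors of the ETS family such as ELK1, which act together with SRF on serum response elements. Immediate early genes respond within minutes without new protein synthesis, and their mRNAs are short-lived. Feedback genes respond more slowly. The DUSP proteins remove phosphate from ERK itself, and Sprouty and SPRED proteins hold back RAS and RAF. In FLT3-mutant leukemia, transcripts of this kind are widely read as a measure of pathway output.

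The central observation concerned EGR1, a zinc finger transcription factor. It had 313 counts with DMSO, 126 with 50 nM pyrvinium and 170 with 100 nM pyrvinium, whereas the counts of FOS, the DNA-binding partner of JUN proteins, were 1692, 1746 and 1813. EGR1 was thus lower in both pyrvinium libraries, and FOS stayed at about its DMSO level in both. Of the 6 feedback genes with enough counts to compare, 5 had a log2 fold change below 0 at 50 nM and 3 at 100 nM. Of all genes tested, 49.8% and 50.4% did. DUSP6, the phosphatase most specific to ERK, had 230, 213 and 273 counts in the same order. DUSP5, a nuclear phosphatase of ERK, had 93, 61 and 64 counts.

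The promoters of the 3 immediate early genes are shown because EGR1 departed from the other two. RefSeq sequences of the 250 bases before the gene start, on GRCh38.p14, were found for 8 of the 10 genes, and DUSP4 and DUSP5 were not matched. The region lies at chr5:138465229-138465478 on the plus strand for EGR1, at chr14:75278578-75278827 on the plus strand for FOS and at chr19:13150161-13150410 on the plus strand for IER2. Each is written 5′ to 3′ with matches to the CArG box, the core of the serum response element, in capitals.
EGR1: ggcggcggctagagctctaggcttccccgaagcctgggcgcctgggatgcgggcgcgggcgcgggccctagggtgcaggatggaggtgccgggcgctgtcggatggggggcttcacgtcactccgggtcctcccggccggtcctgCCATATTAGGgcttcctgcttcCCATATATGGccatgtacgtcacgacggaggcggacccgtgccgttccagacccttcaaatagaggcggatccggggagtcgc
FOS: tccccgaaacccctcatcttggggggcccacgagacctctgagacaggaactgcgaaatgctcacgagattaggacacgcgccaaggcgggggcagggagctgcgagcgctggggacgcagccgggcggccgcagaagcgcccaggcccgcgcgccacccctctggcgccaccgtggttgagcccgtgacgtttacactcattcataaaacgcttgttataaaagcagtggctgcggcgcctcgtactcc
IER2: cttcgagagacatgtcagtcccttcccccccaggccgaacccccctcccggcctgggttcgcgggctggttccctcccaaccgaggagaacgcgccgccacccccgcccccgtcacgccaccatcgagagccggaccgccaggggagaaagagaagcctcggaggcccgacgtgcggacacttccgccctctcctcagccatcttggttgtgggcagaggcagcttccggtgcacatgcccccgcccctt
EGR1 held 2 CArG boxes, from 105 to 96 and from 83 to 74 bases before its start, and neither FOS nor IER2 held one in this window. Among the 8 genes EGR1 was the one with a match. Of all 35116 promoters of the same length, 1.16% held at least 1 CArG box and 0.0313% held 2 or more. The letters TGACG, the core of a cyclic AMP response element (CRE), were found on either strand in 5 of the 8 promoters, those of EGR1, FOS, IER2, SPRY2 and SPRY4, and in 21.2% of all promoters. The whole element, TGACGTCA, and the AP-1 motif TGANTCA were in none of the 8, and in 1.65% and 6.57% of all promoters. The ETS motif CCGGAA was in IER2 and SPRY2, and in 14.5% of all promoters. The letters GCGNGGGCG, bound by EGR proteins, were in EGR1, SPRY2 and SPRY4, and in 8.41% of all promoters. The SP1 motif GGGCGG, which can overlap with the EGR motif, was in 5 of the 8 and in 42.6% of all. TATAAA was in FOS alone of the 8, and in 10.7% of all promoters. These matches describe letters in a short window, and do not show that a factor binds there. A gene without a match, FOS and IER2 among them, may still hold the motif farther upstream, which was not searched.

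The depth of the libraries was alike. Counts summed to 23165771 for DMSO, 22677038 for 50 nM and 24075123 for 100 nM, and TMM scaling factors lay between 0.998 and 1.001. The 10 genes together took 0.0210%, 0.0191% and 0.0205% of all counts. Of 12 myeloid markers fixed for this check, 11 passed the count filter, and ANPEP, which encodes CD13, had 0, 2 and 0 counts. The summed counts of the 12, FLT3 among them, were 33271, 33915 and 37670 in the order DMSO, 50 nM and 100 nM, and without FLT3 they were 26967, 24903 and 26489. By the Benjamini-Hochberg adjusted p of the exact binomial test used throughout, 2 of the 12 were higher and 4 lower at 50 nM, beside 14.3% and 13.9% of all genes tested. At 100 nM 3 were higher and 3 lower, beside 21.1% and 22%. FLT3 and MPO were higher at both doses, and SPI1, CEBPA and HOXA9 were lower at both, with log2 fold changes between -0.32 for SPI1 at 100 nM and 0.77 for FLT3 at 100 nM. Of 12 markers of other cell types, 3 passed the filter. The summed counts of all 12 lay between 189 and 216, most of them from PECAM1, which monocytic cells also express. CD3E, EPCAM, KRT5 and KRT19 had 0 counts in each library. HBB, the beta globin gene of erythroid cells, had 0, 16 and 0 counts, and the B cell factor gene PAX5 had 0, 6 and 0, so that both were seen in the 50 nM library alone. The part of these cell markers in the results was not tested. In bulk RNA, fewer cells with a transcript and less of it per cell cannot be told apart.

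Levels were compared between genes as CPM (TMM-scaled) per kilobase of exon, with 95% exact Poisson intervals. On this scale FOS was the highest of the 10 in the DMSO library at 33.8 (32.2 to 35.5), followed by IER2 at 25.3 (23.9 to 26.8). FOS lay above 80.5% of the genes tested and IER2 above 74.7%. SPRED2 (5.22), EGR1 (4.31), SPRY2 (3.70), DUSP6 (3.52) and SPRED1 (3.41) formed a middle group, in which the intervals of neighbors overlapped. DUSP5 was lower at 1.59 (1.28 to 1.94), and SPRY4 stood at 0.104 (0.0536 to 0.181). DUSP4 had 0 counts in all 3 libraries. For a count of 0 the limit used here, in place of the Poisson interval, is 3 counts, or 1.25e-05% to 1.32e-05% of a library, so DUSP4 was not detectable at this depth and enters no comparison.

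EGR1 changed its place in this order. In the DMSO library the level of EGR1 overlapped those of SPRED2 and SPRY2. At 50 nM its level was 1.78 (1.48 to 2.11) and at 100 nM 2.25 (1.92 to 2.61), in both cases below SPRY2 without overlap and above DUSP5. FOS and IER2 kept the first and second place in each library, without overlap. At 100 nM, neighbors from SPRED2 at 4.80 through DUSP6 and SPRED1 to SPRY2 at 3.63 overlapped in their intervals.

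Changes were measured as log2 fold changes of scaled counts, each with a 95% counting interval (exact, by Clopper-Pearson). A gene was taken as higher or lower when the Benjamini-Hochberg adjusted p of an exact binomial test over all 12879 genes tested was at most 0.05, and as called when it also reached 2-fold. The test compares libraries, not conditions. Of the 10 genes, 9 passed the filter of at least 10 counts in at least 1 library. At 50 nM, 1 of the 9 was called lower, beside 0.256% of all genes tested, and 0 were called higher, beside 0.699%. That gene was EGR1. At 100 nM, 0 of the 9 were called in either direction, beside 0.474% lower and 1.72% higher. By the adjusted p alone, 2 of the 9 were lower at 50 nM, beside 13.9% of all genes tested, and 2 were lower at 100 nM, beside 22% of all. None of the 9 was higher by the adjusted p in either library, beside 14.3% and 21.1% of all. The share of the 9 that was lower by the adjusted p was therefore near the background at 100 nM. Between the doses 0 of the 9 were called at 2-fold, beside 0.202% higher and 0.295% lower at 100 nM. By the adjusted p alone 1 was higher at 100 nM than at 50 nM, beside 7.69% of all, and 0 were lower, beside 9.25%. With the threshold at 1.5-fold, 2 of the 9 were called lower at 100 nM against DMSO, EGR1 and DUSP5, beside 2.4% of all. The comparisons with DMSO share that library.

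Among the immediate early genes, EGR1 (Entrez 1958, chromosome 5 of hg19 from 137801181 to 137805004, plus strand) was the gene called. Its log2 fold change was -1.28 at 50 nM (interval -1.59 to -0.98), and its scaled count fell by 58.7% (adjusted p = 7.93e-17, exact binomial test). At 100 nM its log2 fold change was -0.94 (-1.22 to -0.66), which passed the adjusted p of the exact binomial test (4.56e-11) but not 2-fold. Among the 10931 genes with at least 50 counts in the higher of the 50 nM and DMSO libraries, 2 genes had a lower log2 fold change than EGR1. At 100 nM EGR1 ranked 48 from the lowest of 11027 such genes. From 50 nM to 100 nM the log2 fold change was 0.34, with an interval from -0.00 to 0.68. The value at 100 nM thus lay between DMSO and 50 nM, and the difference between the doses did not pass the adjusted p (0.187, exact binomial test). When edgeR's exact test was given a spread between replicates (a coefficient of variation of 0.1), EGR1 was still called at 50 nM (adjusted p = 0.00104). It was then the one gene of the 9 below the adjusted threshold of edgeR at either dose, with 0.0147 at 100 nM. Of all 12879 genes, this setting called 6 lower and 21 higher at 50 nM, and 23 lower and 115 higher at 100 nM. At an unadjusted p of at most 0.05 it gave 1 of the 9 at each dose, beside 4.56% and 11.3% of all. With a spread of 0.2 EGR1 was not called at 50 nM by edgeR's exact test (adjusted p = 1, unadjusted p = 0.00424), and neither was any other of the 12879 genes.

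FOS (Entrez 2353, chromosome 14 from 75745481 to 75748937, plus strand) had log2 fold changes of 0.08 at 50 nM (interval -0.02 to 0.18) and 0.04 at 100 nM (-0.05 to 0.14). Both intervals hold 0, and neither reaches beyond 0.18 on the log2 scale. An antisense gene of the deposited annotation, Entrez 100287415, covers 549 of the 2158 exon bases of FOS and had 0, 1 and 1 counts. IER2 (Entrez 9592, chromosome 19 from 13261282 to 13265722, plus strand), a small nuclear protein gene, had 1202, 978 and 1195 counts. IER2 fell at 50 nM, with a log2 fold change of -0.26 (-0.39 to -0.14), and at 100 nM its value was -0.07 (-0.18 to 0.05). It was the member that differed between the doses by the adjusted p of the exact binomial test (0.0133), with a log2 fold change of 0.20 from 50 nM to 100 nM. With a spread of 0.1 assumed in edgeR's exact test, neither that difference nor the fall at 50 nM passed the adjusted threshold. GENCODE places an antisense lncRNA over 946 of the 2050 exon bases of IER2, and the strand setting of the counting is not stated.

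Ratios of 2 genes within a library do not depend on the scaling. EGR1 had 0.185 counts for each count of FOS in the DMSO library (0.163 to 0.209). The 50 nM library had 0.0722 (0.0597 to 0.0865), and the 100 nM library 0.0938 (0.0797 to 0.110). The DMSO interval lay above both others without overlap, and the intervals of the 2 doses overlapped. The log2 change of EGR1 less that of FOS was -1.36 at 50 nM (exact conditional interval -1.68 to -1.04) and -0.98 at 100 nM (-1.28 to -0.69). These intervals are not adjusted for the number of pairs compared. Set against IER2 in the same way, EGR1 changed by -1.01 (-1.35 to -0.69) and -0.87 (-1.17 to -0.57). The 3 immediate early genes therefore did not move alike in these libraries. IER2 less FOS was -0.34 at 50 nM (-0.50 to -0.19) and -0.11 at 100 nM (-0.26 to 0.04).

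Among the phosphatases, DUSP6 (Entrez 1848, chromosome 12 from 89741837 to 89746296, minus strand) had log2 fold changes of -0.08 at 50 nM (interval -0.35 to 0.20) and 0.19 at 100 nM (-0.07 to 0.45). Neither value passed the adjusted p. The interval at 100 nM reaches no lower than -0.07 on the log2 scale, by counting error between these libraries alone. From 50 nM to 100 nM it was 0.27 higher (0.00 to 0.53), which failed the adjusted p of the exact binomial test (0.180). GENCODE lists an antisense lncRNA over 891 of its 2820 exon bases. DUSP5 (Entrez 1847, chromosome 10 from 112257625 to 112271302, plus strand) fell at 100 nM by the adjusted p of the exact binomial test (0.0321), with a log2 fold change of -0.59 (-1.08 to -0.12). At 50 nM its value was -0.57 (-1.06 to -0.09), and the adjusted p of the exact binomial test was 0.0619. The 2 doses gave 61 and 64 counts, which overlap in their intervals, so DUSP5 lay on the 2 sides of the threshold with almost the same value. DUSP6 less DUSP5 was 0.50 at 50 nM (-0.06 to 1.06) and 0.79 at 100 nM (0.24 to 1.34). DUSP4 (Entrez 1846, chromosome 8 from 29193611 to 29208185, minus strand) gave no counts.

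Neither SPRY2 nor SPRY4 passed the adjusted p at either dose, and SPRY4 had too few counts to tell. SPRY2 (Entrez 10253, chromosome 13 from 80910111 to 80915086, minus strand) had 181, 156 and 185 counts, with log2 fold changes of -0.18 at 50 nM (-0.50 to 0.14) and -0.03 at 100 nM (-0.33 to 0.28). SPRY4 (Entrez 81848, chromosome 5 from 141689992 to 141704620, minus strand) had 12, 6 and 13 counts. Its log2 fold change was -0.91 at 50 nM, with an interval from -2.66 to 0.56. At 100 nM it was 0.05, with an interval from -1.19 to 1.32, which holds a 2-fold change in both directions.

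The SPRED genes, whose products bind neurofibromin and dampen RAS, were the best counted of the feedback genes. SPRED1 (Entrez 161742, chromosome 15 from 38545052 to 38649450, plus strand) had 573, 582 and 679 counts. Its log2 fold change was 0.06 at 50 nM (-0.11 to 0.23) and 0.19 at 100 nM (0.03 to 0.35), with an adjusted p of 0.0530 in the exact binomial test. SPRED2 (Entrez 200734, chromosome 2 from 65537985 to 65659656, minus strand) had 563, 474 and 538 counts. Its log2 fold change was -0.21 at 50 nM (-0.39 to -0.04, adjusted p = 0.0629, exact binomial test) and -0.12 at 100 nM (-0.30 to 0.05). Neither gene passed the adjusted p at either dose. The difference between the paralogs, SPRED1 less SPRED2, was 0.27 at 50 nM (0.02 to 0.52) and 0.31 at 100 nM (0.07 to 0.55), and both intervals lie above 0. The counting intervals of both genes leave out a 1.5-fold change between these libraries at each dose, but they hold no spread between replicates.

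Set side by side, the 6 feedback genes tested had a median log2 fold change of -0.20 at 50 nM, between -0.91 for SPRY4 and 0.06 for SPRED1. The 3 immediate early genes had a median of -0.26, between -1.28 for EGR1 and 0.08 for FOS. At 100 nM the medians were 0.01 for the feedback genes (range -0.59 to 0.19) and -0.07 for the immediate early genes (range -0.94 to 0.04). The median of all genes tested was 0.0007 at 50 nM and -0.0023 at 100 nM. The feedback median exceeded the immediate early median by 0.07 at 50 nM and by 0.08 at 100 nM, which is small beside the spread within either group. Genes are not replicates, so these medians carry no test. At 50 nM 7 of the 9 genes had a log2 fold change below 0, beside 49.8% of all genes tested, and at 100 nM 5 of the 9, beside 50.4%.

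Summed counts weight the well-counted genes more. The feedback genes summed to 1652 counts in DMSO, 1492 at 50 nM and 1752 at 100 nM, with log2 changes of -0.11 (-0.21 to -0.01) and 0.03 (-0.07 to 0.13). The immediate early genes summed to 3207, 2850 and 3178, with changes of -0.14 (-0.21 to -0.06) and -0.07 (-0.14 to 0.00). Their difference was 0.02 at 50 nM (exact conditional interval -0.10 to 0.15) and 0.10 at 100 nM (-0.02 to 0.22), and both intervals hold 0. From 50 nM to 100 nM the feedback value less the immediate early value was -0.06 by medians and 0.07 by sums. FOS supplies most of the immediate early sum. Against FOS alone the feedback sum changed by -0.19 at 50 nM (-0.33 to -0.05) and by -0.01 at 100 nM (-0.15 to 0.12). Against EGR1 alone, each of DUSP6, SPRY2, SPRED1 and SPRED2 had the higher log2 change at both doses, with intervals that leave out 0. The log2 change of EGR1 less that of DUSP6, for example, was -1.20 (-1.62 to -0.79) and -1.13 (-1.51 to -0.75). For DUSP5 the difference was -0.70 at 50 nM (-1.28 to -0.12), and at 100 nM the interval, from -0.90 to 0.22, held 0.

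The other genes of the pathway were read from lists. Of 25 genes of the cascade from receptor to kinase, 24 were tested, and 0 were called at either dose. Of all genes tested, 0.699% were called higher and 0.256% lower at 50 nM, and 1.72% and 0.474% at 100 nM. These shares stand beside the calls in each list. By the adjusted p 4 were higher and 3 lower at 50 nM, and 7 were higher and 7 lower at 100 nM, with a median of -0.02. Over all genes tested the shares higher and lower were 14.3% and 13.9% at 50 nM and 21.1% and 22% at 100 nM, so the cascade was near the background at 50 nM. FLT3, the mutant receptor of these cells, rose from 6304 counts to 9012 and 11181, with log2 fold changes of 0.55 and 0.77. The adaptor GAB2 rose from 2274 to 2820 and 3499 counts, with log2 fold changes of 0.34 and 0.56. The scaffold KSR1 rose at 100 nM (log2 fold change 0.45). Of 15 negative regulators of RAS and RAF, 13 were tested, and SPRY3 was called higher at both doses, from 12 counts to 32 and 36. SPRY3 lies in a region that the X and Y chromosomes share, so its reads may be split. The adaptor SH2B3, a brake on cytokine receptors, rose at both doses (0.23 and 0.48), RASA2, a RAS GTPase-activating protein, fell at 100 nM (-0.34), and ERRFI1 had a value of 0.34 that did not pass. By the adjusted p the list of 13 had 2 higher and 0 lower at 50 nM, beside 14.3% and 13.9% of all genes, and 4 higher and 5 lower at 100 nM, beside 21.1% and 22%.

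Of 7 other DUSP phosphatases, 6 were tested. DUSP8 was called higher at 100 nM, from 2 counts in DMSO to 15, a log2 ratio with an interval from 0.75 to 6.02. It passed the filter of 10 counts through the 100 nM library alone, where it was high, so this call is no evidence of a change. The others did not pass at either dose, among them DUSP1 (55, 57 and 40 counts), DUSP7 (2207, 2032 and 2419) and DUSP10 (143, 130 and 127). Of all genes tested, 14.3% were higher and 13.9% lower by the adjusted p at 50 nM, and 21.1% and 22% at 100 nM. Of 16 other transcripts of ERK output, 12 were tested, with medians of -0.13 at 50 nM and -0.08 at 100 nM. By the adjusted p 1 was higher and 6 lower at 50 nM, beside 14.3% and 13.9% of all genes, and 2 were higher and 5 lower at 100 nM, beside 21.1% and 22%. ETV4, an ETS factor downstream of ERK, fell from 569 counts to 375 and 322, with log2 fold changes of -0.57 and -0.88. The cyclin gene CCND1 fell from 91 to 52 and 55 counts (-0.77 and -0.78). MAFF was called lower at 50 nM, beside 0.256% of all genes tested. It had 28 counts in DMSO, 11 at 50 nM and 23 at 100 nM. EMP1 rose at 100 nM, from 35 counts to 61 (log2 fold change 0.74). TRIB1, named after its values were seen, fell from 595 counts to 412 and 474 (-0.50 and -0.38). CIC, also named after its values were seen, rose at both doses (0.14 and 0.33). ETV5 and FOSL1, named in the same way, did not pass at either dose. ETV5 had 801, 746 and 881 counts (-0.07 and 0.08), and FOSL1 had 346, 315 and 354 (-0.10 and -0.02).

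Within the FOS, JUN and EGR families, 6 of 8 other genes were tested, with 2 higher and 2 lower at 50 nM (14.3% and 13.9% of all genes) and 2 higher and 1 lower at 100 nM (21.1% and 22% of all) by the adjusted p. JUN, the main partner of FOS, was called higher at 100 nM, beside 1.72% of all genes tested. It had 46, 87 and 116 counts and log2 fold changes of 0.95 and 1.27. FOSL2 rose (0.27 and 0.52), and JUNB fell (-0.37 and -0.24). FOSB, named after its values were seen, had 29, 13 and 15 counts, with log2 fold changes of -1.09 and -0.99 that did not pass the adjusted p. Of 28 other immediate early genes, 23 were tested, with 2 higher and 4 lower at 50 nM and 6 higher and 5 lower at 100 nM. Beside the same shares of all genes, 14.3% and 13.9% at 50 nM and 21.1% and 22% at 100 nM, the counts of lower genes were near the background. At 100 nM KLF2 was called higher, from 9 counts to 30, but it had passed the filter only through the pyrvinium libraries, where it was high. At the same dose the nuclear receptor gene NR4A1 was called lower, from 31 counts to 15, beside 0.474% of all genes tested. MYC rose from 21175 counts to 28215 and 33596 (0.45 and 0.61), and ATF3, which also responds to amino acid stress, rose at 100 nM (0.65). KLF4 fell at 100 nM (-0.55). KLF10, named after its values were seen, fell at both doses, from 389 counts to 243 and 277 (-0.64 and -0.55). KLF6 and PPP1R15A, also named after their values were seen, rose at 100 nM (0.46 and 0.38). Of 6 factors that act at serum response elements, 0 were higher and 2 lower at 50 nM, beside 14.3% and 13.9% of all genes, and 0 were higher and 3 lower at 100 nM, beside 21.1% and 22%. ELK1, an ERK substrate, fell from 836 counts to 643 and 641 (-0.34 and -0.44), and MRTFA fell at 100 nM (-0.27). ELK4 had values of 0.08 and 0.23 that did not pass. Each list held tested genes on both sides of 0 at both doses.

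The genes most like DUSP6 and EGR1 were sought among 9787 genes counted 100 times or more in every library, by the Euclidean distance between pairs of log2 fold changes at 50 nM and 100 nM. With 3 libraries this measure of likeness is coarse. NME2, DOT1L and SLC2A3 lay nearest to DUSP6, at distances of 0.0128 to 0.0144. TXNIP, ARRDC4 and SLC45A3 lay nearest to EGR1, at the larger distances of 0.308, 0.396 and 0.470. TXNIP, an arrestin-like inhibitor of glucose uptake, had 2017, 982 and 1214 counts, and its relative ARRDC4 had 288, 151 and 169.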

How the data were processed

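RNA of Molm13 cells was measured in 3 libraries, 1 per condition, mapped to DMSO, 50 nM and 100 nM pyrvinium by their titles. The authors aligned 75-base paired reads of stranded mRNA libraries to hg19 using Rsubread. The deposited values are raw counts per Entrez gene, not normalized. The aligner's version and the strand setting are not given in the sources used here. A deposited table of the authors' EBSeq comparisons, with posterior probabilities, fold changes and condition means, was not used.

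Symbols came from RefSeq by Entrez identifier. Exon positions are in hg19, and promoters are from RefSeq on GRCh38.p14. Library sizes were scaled by TMM (edgeR 4.0.16, R 4.3.3). Genes that reached 10 counts in some library (12879) entered an exact binomial test, two-sided by doubling the smaller tail (scipy 1.17.1), with Benjamini-Hochberg adjustment at 0.05. Log2 fold changes had 0.5 counts added. Intervals and floors (3 counts) cover counting error only. Reads without molecular identifiers are not independent molecules, so the intervals may understate even that error. The procedure was run on simulated counts that held counting error only. They had no spread between replicates, so the run cannot tell how the calls fare under such a spread.

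The genes and lists were chosen with earlier results of these data known. Named from each list were all genes called and the 3 largest changes at 100 nM among genes that reached 50 counts with DMSO or 100 nM. Others are marked in the text. The settings varied were the scaling (DESeq2 1.42.0 factors, library totals, or TMM leaving out mitochondrial transcripts), the count filter, the fold threshold (1.5), the counts added (5), and a spread between replicates assumed in edgeR (0.1, 0.2 or 0.4).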

Additional observations from a re-analysis of the deposited data

How the results depend on the processing

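With 1 library per condition, the spread between replicates is unknown, and depth limits SPRY4 and DUSP4 besides. The call of EGR1 at 50 nM rested on the assumed spread. With a coefficient of variation of 0.2 or 0.4 in edgeR's exact test, 0 of the 9 genes were called lower there, but so were 0 of all 12879, so these settings say nothing particular to the 9. At an unadjusted p of at most 0.05 they gave 1 and 0 of the 9, beside 1.02% and 0.14% of all. At 1.5-fold, 2 genes (EGR1 and DUSP5) were called lower at 100 nM, beside 2.4% of all. With summed counts in place of the median, the value of the immediate early genes moved to -0.14 at 50 nM against DMSO and to 0.066 for 100 nM against 50 nM, because FOS and IER2 hold most of those counts. Of 222 alternative values computed, the other 217 moved by less than counting error or, for counts of genes, stayed within 1.5 times. They include all 108 for single genes, under 3 other scalings and with 5 counts added. Another definition of the two-sided p, chosen after seeing the data, changed no count of these genes. The scalings moved the median of all genes by at most 0.0050 on the log2 scale. No paired analysis was possible because each condition has 1 library.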

Other observations

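The CArG box was searched before all genes, since 2 lie before EGR1. This search was added after the values of EGR1 were seen. Of 394 genes with at least 1 CArG box in the 250 bases before a RefSeq start, 136 passed the count filter. Their median log2 fold change was 0.03 at 50 nM and -0.01 at 100 nM, beside medians of 0.0007 and -0.0023 for all genes tested. At 50 nM 0 of the 136 were called higher and 2 lower, beside 0.699% and 0.256% of all genes tested, and EGR1, which prompted the search, was 1 of these 2. At 100 nM 3 were called higher and 1 lower, beside 1.72% and 0.474% of all. By the adjusted p alone, 30 of the 136 were higher and 21 lower at 50 nM, beside 14.3% and 13.9% of all. The same rule gave 33 higher and 31 lower at 100 nM, beside 21.1% and 22%. Of 11 genes with at least 2 boxes, 6 passed the filter. SRF, which encodes the factor that binds the box, was among them and had 2781, 2386 and 2565 counts, with log2 fold changes of -0.19 and -0.17. ING4, ZNF548, AGPAT1 and CUL4B, the others beside EGR1, had log2 fold changes between -0.12 and 0.24 at 50 nM and between -0.33 and 0.19 at 100 nM.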
